A study of Mus musculus with 67 samples.

Results

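Elastic fibre genes encode elastin, the microfibril proteins around it, the fibulins that link the components and the enzymes that crosslink elastin. The set was chosen by name, with earlier results of these data known. It consisted of Eln, Fbn1, Fbln1, Fbln2, Fbln5, Efemp2, Lox, Loxl1, Mfap4 and Mfap5, which are 10 of the 39179 gene rows in the table. All 10 were present in it. The cells came from the descending aorta of male C57Bl6 mice aged 3 to 4 months and were labelled vascular smooth muscle cells. The groups were 45 cells at passage 2 and 22 cells at passage 1. All were grown in DMEM with 10% fetal bovine serum and 1% penicillin and streptomycin, and passage 1 cultures stood undisturbed for 5 days before trypsin treatment gave passage 2. Each library was made from 1 cell, captured on a Fluidigm C1 system. No animal or culture is given for any cell, so each passage counted as 1 sample, no test between passages was run, and every SD given is the spread between cells. Passage also went with the prefix of the library names, so passage and library set cannot be told apart.

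Elastic fibres give arteries their recoil. Smooth muscle cells of the aortic media secrete elastin as soluble tropoelastin, most of it around birth, and it is deposited on a scaffold of fibrillin microfibrils. Fibulins bring tropoelastin, the microfibril and the crosslinking enzymes together, and lysyl oxidases, which need copper, oxidise lysines so that elastin becomes insoluble.

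The promoter windows of Fbln5, Fbln2 and Fbn1 are shown because Fbln5 had a far higher level in passage 2 cells than in passage 1 cells, whereas Fbn1 and Fbln2 had similar levels in both. Each runs 5′ to 3′ from 250 bases before to 50 bases after a start in RefSeq (GRCm38.p6). Capitals mark the Sp1 GC box, GGGCGG or its reverse complement. They are, in order, chr12:101819070-101819369 and chr12:101818435-101818734 on the minus strand for the upstream and downstream starts of Fbln5, chr6:91212514-91212813 on the plus strand for Fbln2, and chr2:125506389-125506688 on the minus strand for Fbn1.
Fbln5 upstream start: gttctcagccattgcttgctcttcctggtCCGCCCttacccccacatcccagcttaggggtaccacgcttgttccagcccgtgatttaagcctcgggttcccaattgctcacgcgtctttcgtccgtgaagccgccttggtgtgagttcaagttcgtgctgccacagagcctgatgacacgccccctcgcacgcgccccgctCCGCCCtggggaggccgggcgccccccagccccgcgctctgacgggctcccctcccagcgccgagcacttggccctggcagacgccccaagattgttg
Fbln5 downstream start: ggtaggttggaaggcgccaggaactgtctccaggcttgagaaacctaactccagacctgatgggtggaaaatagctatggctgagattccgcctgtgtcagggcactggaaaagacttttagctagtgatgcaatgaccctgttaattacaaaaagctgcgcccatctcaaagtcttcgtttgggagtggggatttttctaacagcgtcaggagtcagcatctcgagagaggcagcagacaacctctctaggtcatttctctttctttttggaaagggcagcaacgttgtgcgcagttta
Fbln2: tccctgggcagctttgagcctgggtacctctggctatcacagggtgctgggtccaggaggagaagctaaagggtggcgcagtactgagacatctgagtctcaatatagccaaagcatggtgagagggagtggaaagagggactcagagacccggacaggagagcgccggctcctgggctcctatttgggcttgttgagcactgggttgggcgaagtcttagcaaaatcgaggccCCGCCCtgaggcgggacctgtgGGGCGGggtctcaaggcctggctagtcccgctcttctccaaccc
Fbn1: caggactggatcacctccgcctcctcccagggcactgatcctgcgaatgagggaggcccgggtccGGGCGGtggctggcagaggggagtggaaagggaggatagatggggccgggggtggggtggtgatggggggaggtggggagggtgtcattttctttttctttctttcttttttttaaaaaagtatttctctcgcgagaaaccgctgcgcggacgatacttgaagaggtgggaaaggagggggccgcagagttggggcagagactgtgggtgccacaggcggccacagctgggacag
Windows for 5 members (Fbn1, Fbln1, Fbln2, Fbln5 and Efemp2) were searched on both strands, 9 windows in all, of which some overlap. Eln, Lox, Loxl1, Mfap4 and Mfap5 had no window here, so the motif counts do not cover them. The GC box was in 7 of these 9 windows, and 35.66% of the 32851 windows of all genes held it. The upstream Fbln5 window, Fbln2 and Fbn1 carried it and the downstream Fbln5 window did not. A link between the box and the passage ratio was not tested. The SMAD box CAGACA was in 3 of the 9, among them the downstream Fbln5 window (21.04% of all windows). The AP-1 motif TGANTCA, the TEAD motif GGAATG and the CArG box were in 0 of the 9 windows, and in 7.81%, 14.66% and 1.63% of all windows.

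The authors scaled each cell's gene counts by its own size factor, and values below are on that scale. Passage 2 cells had 548419 to 1509589 reads and passage 1 cells 817021 to 1561129, and the median number of genes read was 7257 and 8477.5. At least 3 of 10 smooth muscle markers were at 10 or more in 45 of 45 passage 2 cells and 19 of 22 passage 1 cells, and the 10 summed to 1371 to 28496 and to 173 to 8012; Des was at 0 at passage 1. At least 3 of 10 fibroblast markers did so in 19 of 45 and 15 of 22 cells (summed value 4.09 to 4022 and 2.91 to 5893), with Clec3b and Tcf21 at 0. At least 3 of 10 endothelial markers did so in 2 of 45 and 5 of 22 cells (summed value 0 to 7050 and 1.27 to 5181), with Cldn5 at 0; these are called endothelial marker cells here. Of 8 macrophage markers, 5 were at 0 in both passages, Ptprc and Adgre1 among them, and 3 had reads in both. Csf1r reached 10 in the most cells, 7 of 45 and 9 of 22. The 8 summed to 0 to 295 and to 0 to 150, and 0 cells in either passage had 3 of them at 10. Mki67 or Top2a, which mark cycling cells, reached 10 in 10 of 45 and 16 of 22 cells.

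Of the 10 elastic fibre genes, Eln, Lox, Fbln5, Loxl1 and Mfap5 had higher values at passage 2 under every setting tried, whereas the direction for Mfap4, Fbn1, Fbln1, Fbln2 and Efemp2 turned, or came to 0, under at least 1 setting. On means over all cells, all 9 members that passed a filter on low values were higher at passage 2, and 45.3% of the 8682 genes that passed were. To pass, a gene needed a mean of 10 or more in either passage and reads in 25% or more of the cells there. Fbln1 failed it, and Eln and Mfap4 passed it only through passage 2, where they are high. The log2 ratio of means, passage 2 over passage 1 with a pseudocount of 1, was at least 1 for 6 members (Mfap4, Eln, Lox, Fbln5, Loxl1 and Mfap5), a share to be read beside 14.4% of all genes that passed. It was between 0 and 1 for Efemp2, Fbln1, Fbln2 and Fbn1. Among the 7 members that passed in both passages, 4 had a ratio of at least 1, beside 10.0% of all such genes, and their median was 1.29, beside -0.07. A value higher at passage 2 in at least 70% of cell pairs (each passage 2 cell set against each passage 1 cell) was found for Fbln5, Lox, Loxl1 and Eln, and for 3.08% of all genes that passed. Eln passed the filter only through passage 2, and that share was not computed for genes that passed in both passages. Over the 10 members the median ratio was 1.37, and over the 9 that passed it was 1.45, whereas it was -0.11 over all genes that passed. Because the members were chosen with earlier results of these data known, these shares and medians are descriptions and not independent support.

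**Figure D1:**
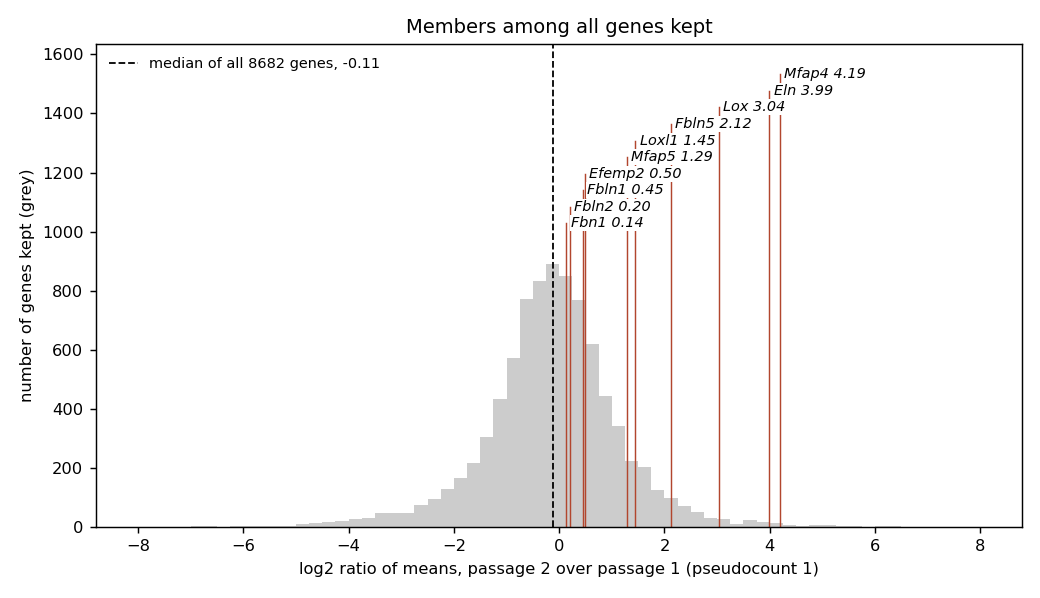
Log2 ratio of means, passage 2 over passage 1 with a pseudocount of 1 (x axis), against the number of genes in each bin (y axis) for the 8682 genes that passed the filter on low values (grey). Vertical lines mark the 10 elastic fibre genes, including Fbln1, which failed the filter; they run from 0.14 (Fbn1) to 4.19 (Mfap4), all right of the median of all genes (dashed, -0.11).

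Elastin itself (Eln, ENSMUSG00000029675, GRCm38 chromosome 5, 134702593 to 134747323, minus strand, 36 merged exons), the core of the fibre, was read at modest counts in most passage 2 cells and at very low counts in a minority of passage 1 cells. Its normalised count had a lowest value of 0, a median of 10.7 and a highest value of 319 in passage 2 cells, against 0, 0 and 30.8 in passage 1 cells. The groups overlapped because 12 passage 2 cells were also at 0, but 15 passage 2 cells lay above the highest passage 1 cell. The mean was 44.7 ± 70.1 at passage 2 and 1.87 ± 6.54 at passage 1 (SD between cells, n = 45 and 22), a log2 ratio of 3.99. Eln was at 10 or more in 53.3% of passage 2 cells, 24 of 45 (exact 95% binomial interval 37.9 to 68.3%), and in 4.55% of passage 1 cells, 1 of 22 (0.115 to 22.8%). Of 14 genes of lymphocytes, red cells and striated muscle, which these cells should lack, the highest such share was 8.89% at passage 2 and 9.09% at passage 1, both of Lck, so the passage 1 share of Eln was no higher than this background. Any read of Eln was found in 73.3% of passage 2 cells and 36.4% of passage 1 cells (71.1% and 22.7% with each cell thinned to 500000 reads), and the highest such share among the 14 background genes was 33.3% (Cd3d) and 31.8% (Lck). In reads, Eln had 1980 at passage 2 (exact 95% Poisson interval 1894 to 2069) and 67 at passage 1 (51.9 to 85.1). Passage 1 cell 9 held 79.1% of those 67 reads, and the next passage 1 cell had a normalised count of 3.68; without cell 9 the log2 ratio was 4.94. Its size also moved with the processing: it was 2.20 with a pseudocount of 10, 2.90 on means of log2 values, 3.25 in 12 pairs of cells matched on reads, 4.82 without cycling cells and 5.17 without the 25% of cells with the fewest genes. The binomial intervals treat cells as independent draws, and the Poisson intervals treat reads as independent. The reads carry no molecular identifiers, so amplified copies count as separate reads. Neither kind of interval covers differences between animals or cultures. Eln exons share 267 bases with Gm30003 on the opposite strand.

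Eln values in passage 2 cells went with smooth muscle markers more than with depth. Markers were taken as the mean log2(value + 1) of their list in each cell. Spearman's rho between Eln and the smooth muscle markers was 0.61 over the 45 passage 2 cells and 0.28 over the 22 passage 1 cells. Without the endothelial marker cells it was 0.56 (n = 43) and 0.28 (n = 17). Against reads per cell it was -0.08 at passage 2 and 0.03 at passage 1. Against fibroblast markers it was -0.04 at passage 2 and -0.26 at passage 1. These are descriptions over cells that share a passage and a library set.

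The microfibril genes differed in how their levels compared between the passages. Fibrillin 1 (Fbn1, ENSMUSG00000027204, chromosome 2, 125300594 to 125507993, minus strand), the main structural protein of the microfibril, had a lowest, median and highest value of 2.74, 386 and 1911 in passage 2 cells, against 1.56, 415 and 967 in passage 1 cells. The ranges overlapped almost wholly, with 4 passage 2 cells above all passage 1 cells. Its mean was 481 ± 424 at passage 2 and 437 ± 295 at passage 1, and passage 2 had the higher value in 50.2% of cell pairs. The log2 ratio of 0.14 was the smallest among the members and was -0.17 without cycling cells. Fbn1 exons share 2442 bases, 20.1% of the total, with Gm9913 on the opposite strand, and it is not given whether the counting used strand; Gm9913 had 18 reads at passage 2 and 3 at passage 1.

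Microfibril-associated protein 5 (Mfap5, ENSMUSG00000030116, chromosome 6, 122505845 to 122529290, plus strand), a small glycoprotein that binds fibrillin, had values of 0, 360 and 1668 in passage 2 cells, against 0.756, 87 and 596 in passage 1 cells. The groups overlapped: 8 passage 2 cells lay above all passage 1 cells, and 35 lay above the passage 1 median. The mean was 417 ± 410 at passage 2 and 170 ± 182 at passage 1, a log2 ratio of 1.29, with the higher value at passage 2 in 69.6% of pairs. Without cycling cells, which leaves 6 cells at passage 1, the ratio was 0.55 and no longer reached 1.

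Mfap4 (ENSMUSG00000042436, chromosome 11, 61485431 to 61488900, plus strand), which encodes a protein that binds tropoelastin and fibrillin, had the highest ratio of means, carried by few cells. Its values were 0, 0 and 377 in passage 2 cells, against 0, 0.584 and 4.33 in passage 1 cells. It was at 0 in 25 passage 2 cells, and 16 passage 2 cells lay above the highest passage 1 cell. The mean was 36.2 ± 91.5 at passage 2 and 1.04 ± 1.29 at passage 1, a log2 ratio of 4.19. Without passage 2 cell 36, which had the highest value, the ratio was 3.85. Passage 2 cell 3 held 26% of the 1768 passage 2 reads. Passage 1 had 32 reads in all. Passage 2 was higher in 43.4% of pairs and lower in 36.4%, and on medians over cells the sign turned, to -0.66. The ratio was 1.25 on means of log2 values, 2.07 with a pseudocount of 10 and 2.62 without the 25% of cells with the fewest genes. At passage 2, 10 of 45 cells reached a value of 10 (22.2%, 11.2 to 37.1%), as did 0 of 22 passage 1 cells, which allows a share of up to 13.6% by the limit of 3 counts and up to 15.4% by the exact 95% interval. The share of cells with any read ran the other way, 44.4% at passage 2 and 63.6% at passage 1 (44.4% and 54.5% when thinned). Mfap4 exons share 89 bases with Mapk7 on the opposite strand, a gene with 184 and 377 reads.

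**Figure D2:**
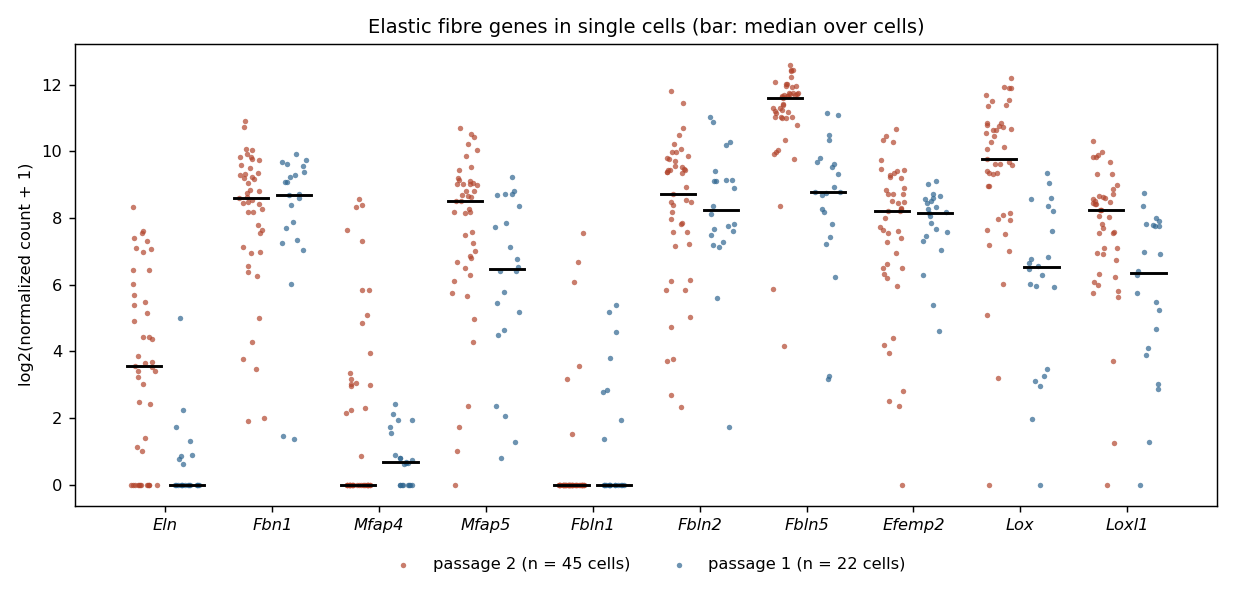
Normalised count of each elastic fibre gene in each cell, as log2(value + 1) on the y axis, with 45 passage 2 cells left of 22 passage 1 cells for each gene; points are cells and bars are medians over cells. Fbln5, Lox, Loxl1 and Mfap5 sit higher at passage 2, Fbn1 and Fbln2 have passage 2 and passage 1 medians near each other, Efemp2 spreads wider at passage 2, and Eln, Mfap4 and Fbln1 are at 0 in many cells.

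The fibulins split by gene. Fbln5 (ENSMUSG00000021186, chromosome 12, 101746565 to 101819055, minus strand, 12 merged exons), which binds tropoelastin and integrins and is needed for elastic fibre assembly in mice, had the highest mean per kb of merged exons of the members in both passages and was higher at passage 2 in the largest share of cell pairs among them. Its lowest, median and highest values were 17, 3078 and 6156 in passage 2 cells, against 7.94, 436 and 2256 in passage 1 cells. Of the passage 2 cells, 30 lay above the highest passage 1 cell and 42 above the passage 1 median. The mean was 2864 ± 1444 at passage 2 and 657 ± 630 at passage 1, a log2 ratio of 2.12, and passage 2 was higher in 91.2% of pairs, a share exceeded by 0.0576% of the genes that passed the filter. The spread between cells relative to the mean (coefficient of variation) was 0.504 at passage 2 and 0.958 at passage 1. The 2 highest passage 1 cells, at 2256 and 2170, were both endothelial marker cells; without endothelial marker cells the ratio was 2.50.

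Fbln2 (ENSMUSG00000064080, chromosome 6, 91212455 to 91272540, plus strand), a fibulin of the vessel wall that binds elastin and fibrillin, had values of 4.00, 417 and 3616 in passage 2 cells, against 2.34, 301 and 2102 in passage 1 cells. Its groups overlapped, with 2 passage 2 cells above all passage 1 cells. The mean was 620 ± 704 at passage 2 and 541 ± 573 at passage 1, a log2 ratio of 0.20, and passage 2 was higher in 54.0% of pairs. The ratio was -0.05 on means of log2 values and -0.10 without the 25% of cells with the fewest genes. Efemp2 (ENSMUSG00000024909, chromosome 19, 5473954 to 5482517, plus strand), the fibulin that brings lysyl oxidase to tropoelastin, had values of 0, 297 and 1630 in passage 2 cells, against 23.4, 285 and 550 in passage 1 cells. Its passage 2 cells extended past the passage 1 range at both ends, with 12 above the highest passage 1 cell and 7 below the lowest. The mean was 389 ± 393 at passage 2 and 275 ± 143 at passage 1, a log2 ratio of 0.50, with 52.8% of pairs higher at passage 2. The ratio was -0.31 on the mean of log2 values and 1.06 in 12 pairs of cells matched on reads. Across cells, Efemp2 went with the mean log2(value + 1) of the fibroblast markers, with rho 0.51 at passage 2 and 0.47 at passage 1. Efemp2 exons share 173 bases with Mus81 on the opposite strand, a gene with 1239 and 370 reads.

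Fbln1 (ENSMUSG00000006369, chromosome 15, 85205949 to 85286535, plus strand), a fibulin found within elastin fibres and basement membranes, was read in few cells. Values of 10 or more occurred in 8.89% of passage 2 cells, 4 of 45 (2.48 to 21.2%), and in 18.2% of passage 1 cells, 4 of 22 (5.19 to 40.3%), against 8.89% and 9.09% for Lck, the highest of the background genes. Its median was 0 in both groups, and the highest cell was at 185 at passage 2 and 40.7 at passage 1. Passage 2 cell 4 held 46.5% of the passage 2 reads, and without it the log2 ratio turned from 0.45 to -0.37. No direction is given for Fbln1.

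Both crosslinking enzymes had higher values at passage 2. Lysyl oxidase (Lox, ENSMUSG00000024529, chromosome 18, 52516067 to 52529867, minus strand), which oxidises lysines in elastin and collagen, had values of 0, 878 and 4706 in passage 2 cells, against 0, 91.2 and 647 in passage 1 cells. Of the 45 passage 2 cells, 28 lay above the highest passage 1 cell and 41 above the passage 1 median. The mean was 1336 ± 1219 at passage 2 and 162 ± 184 at passage 1, a log2 ratio of 3.04, and passage 2 was higher in 87.1% of pairs. Loxl1 (ENSMUSG00000032334, chromosome 9, 58287738 to 58313186, minus strand), a lysyl oxidase paralogue that maintains elastic fibres in adult mice, had values of 0, 298 and 1268 in passage 2 cells, against 0, 80.6 and 428 in passage 1 cells. Its groups overlapped more than those of Lox, with 10 passage 2 cells above all passage 1 cells. The mean was 341 ± 302 at passage 2 and 124 ± 122 at passage 1, a log2 ratio of 1.45, with 75.3% of pairs higher at passage 2. The Loxl1 ratio was 0.93 in 12 pairs of cells matched on reads. Without cycling cells the ratio was 2.61 for Lox and 1.06 for Loxl1. No run of 50 bases in the exons of Lox or Loxl1 occurred in the exons of another gene. Lox exons share 30 bases with AC161119.1 on the opposite strand, too few for such a run.

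Levels of the members were compared with each other per kb of merged exons, as normalised counts per kb. At passage 2 the order of the mean levels was Fbln5 at 414, Lox at 280, Mfap5 at 116, Loxl1 at 103, Efemp2 at 103, Fbln2 at 97.3, Fbn1 at 39.7, Mfap4 at 18.8, Eln at 5.52 and Fbln1 at 1.90 per kb. At passage 1 it was Fbln5 at 95.1, Fbln2 at 84.9, Efemp2 at 72.7, Mfap5 at 47.5, Loxl1 at 37.7, Fbn1 at 36.1, Lox at 33.8, Fbln1 at 1.33, Mfap4 at 0.54 and Eln at 0.231 per kb. Lox thus stood behind Fbln5 alone at passage 2 and behind 6 members at passage 1.

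The order at passage 1 depended on the measure: on medians over cells Efemp2, at 75.3 per kb, stood above Fbln5, at 63.1 per kb, and per length of the longest transcript the mean of Fbln2 was 113.1 per kb, beside 112.8 per kb for Fbln5. Neighbours in these orders often did not differ within cells. At passage 2 the level per kb of Fbln5 was above that of Lox in 35 of 45 cells and that of Lox above Mfap5 in 34, while Loxl1 was above Efemp2 in 22 cells and below it in 22, and Efemp2 was above Fbln2 in 22 and below it in 23. At passage 1 Fbln5 was above Fbln2 in 13 of 22 cells, and Mfap5 was above Loxl1 in 11 and below it in 11. Fbln5 was above Eln per kb in all 45 and all 22 cells. Among the 8632 genes that passed the filter and had a length, Fbln5 ranked 81 by level per kb at passage 2 and 424 at passage 1, and Lox ranked 134 and 1370.

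**Figure D3:**
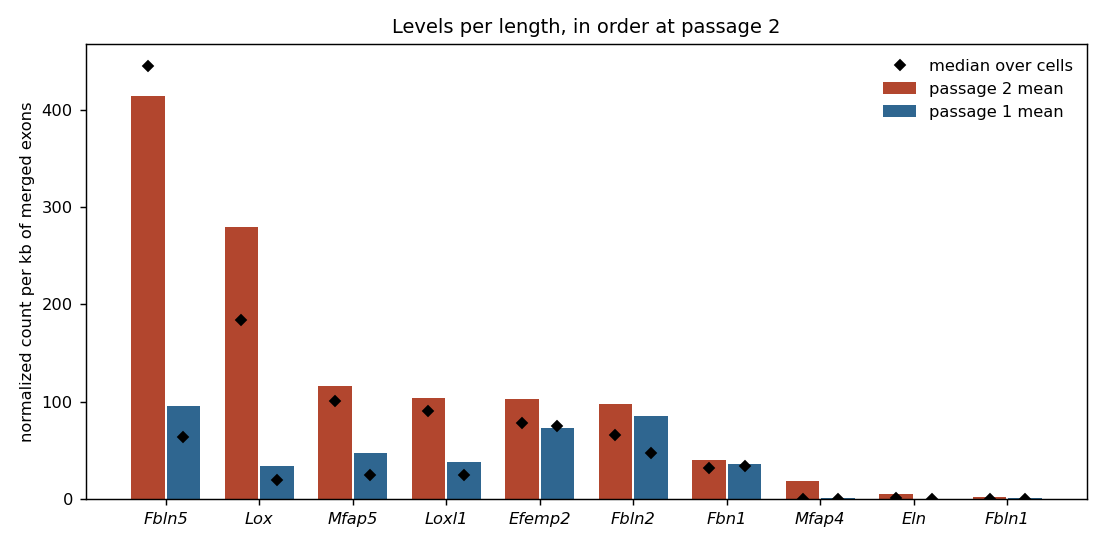
Mean normalised count per kb of merged exons (bars, y axis from 0) for each elastic fibre gene in passage 2 cells (left bar, n = 45) and passage 1 cells (right bar, n = 22), in the order of the passage 2 means; diamonds are medians over cells. Lox, with 280 and 33.8 per kb, stands behind Fbln5 alone at passage 2 and behind 6 members at passage 1.

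The balance between the lysyl oxidases differed between the passages. Lox was above Loxl1 per kb in 32 of 45 passage 2 cells, with Loxl1 above in 12, and in 8 of 22 passage 1 cells, with Loxl1 above in 14. The median log2 of Lox over Loxl1 per kb was 1.52 at passage 2 (44 cells with both read) and -0.46 at passage 1 (20 cells). Lox was above Fbn1 per kb in 39 of 45 passage 2 cells and 7 of 22 passage 1 cells. Fbln5 was the leading member per kb in 30 of 45 passage 2 cells and 7 of 22 passage 1 cells, Lox in 10 and 0, and Efemp2 in 0 and 7. Of the members' summed level per kb, Fbln5 made a median of 35.2% at passage 2 and 22.7% at passage 1, and Lox a median of 21.1% and 4.64%.

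Most cells held most members. The number of the 10 members at a value of at least 10 had a median of 8 (1 to 9) in passage 2 cells and 7 (1 to 8) in passage 1 cells, with means of 7.49 ± 1.62 and 6.41 ± 1.59 (SD between cells, n = 45 and 22). With any read counted, the means were 8.22 and 8.27, so the passages did not stand in that order at this lower limit. The members together took a median of 0.747% of a cell's reads at passage 2 (0.00297 to 1.57%) and 0.270% at passage 1 (0.0581 to 0.635%). No cell held all 10 members at 10.

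The cells with few members were not all of a kind. At passage 2, 42 of the 45 cells had 7 to 9 members at 10, 1 had 6, and the 2 endothelial marker cells had 1 each. Passage 2 cell 8 had Fbln5 at 17, and no other member above 4.00. Passage 2 cell 11 had Fbln5 at 870, and no other member above 8.23. The endothelial marker cells of passage 1 differed from these: Fbn1 ranged from 129 to 778, Fbln2 from 146 to 676 and Fbln5 from 149 to 2256 in the 5 of them. In 2 of these 5, cells 13 and 14, only 4 members reached 10, and Lox, Loxl1 and Mfap5 were below 10 in both. Passage 1 cell 21, not an endothelial marker cell, had Efemp2 at 349 and no other member above 8.59. That cell had 817021 reads and 4017 genes read, both the lowest among passage 1 cells. Without the endothelial marker cells the mean number of members was 7.79 at passage 2 and 6.59 at passage 1.

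**Figure D4:**
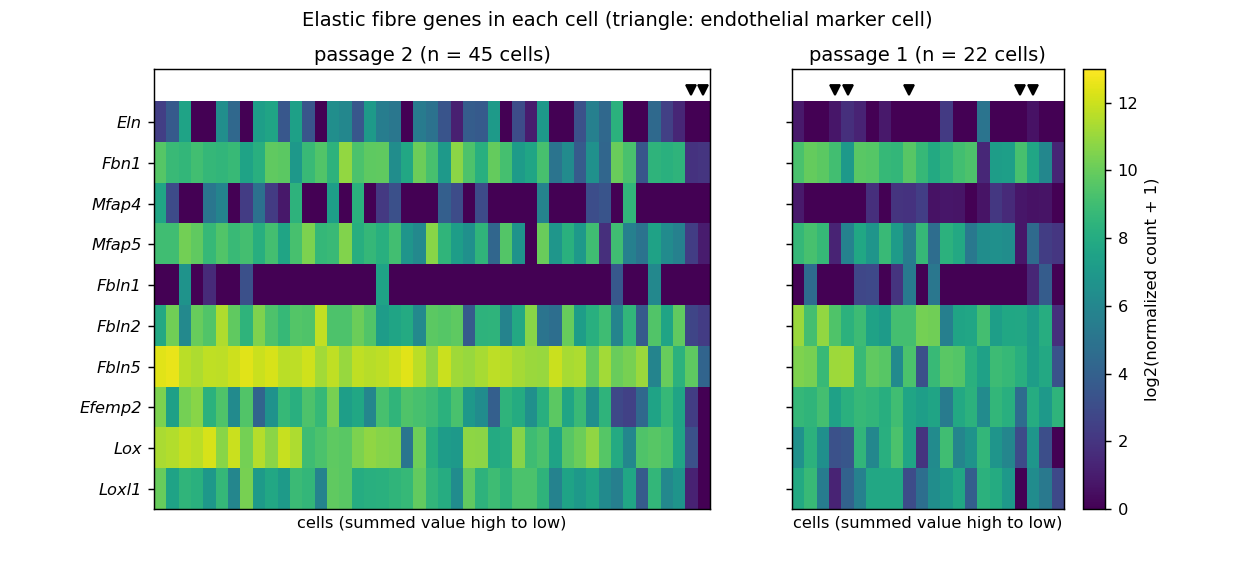
Value of each elastic fibre gene (rows) in each cell (columns) as log2(normalised count + 1), colour scale from 0 to 13, with passage 2 cells (n = 45) in the left panel and passage 1 cells (n = 22) in the right; cells run from the highest to the lowest summed value of the members, and triangles mark endothelial marker cells. The 2 marked passage 2 cells stand last in their panel, while the 5 marked passage 1 cells are spread over theirs.

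Members varied together only weakly from cell to cell. Over the 45 passage 2 cells, Spearman's rho between the 9 members that passed the filter had a median of 0.23 over 36 pairs (-0.12 to 0.42), and 35 of the 36 were above 0, while the median over all pairs of genes that passed was 0.02 and 55.9% of those pairs were above 0. The highest were Fbln5 with Efemp2 at 0.42 and Lox with Mfap5 at 0.40. Without the 2 endothelial marker cells, which were below 10 for all members but Fbln5, the median was 0.16. Over the 22 passage 1 cells the median was 0.15 (-0.32 to 0.63), beside 0.04 over all gene pairs, and the highest were Loxl1 with Mfap5 at 0.63, Lox with Loxl1 at 0.57, Lox with Mfap5 at 0.45 and Fbn1 with Mfap5 at 0.40. Lox with Loxl1 was at 0.21 at passage 2. Each point in these correlations is a cell, and cells of a passage share a library set, so the values are descriptions.

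**Figure D5:**
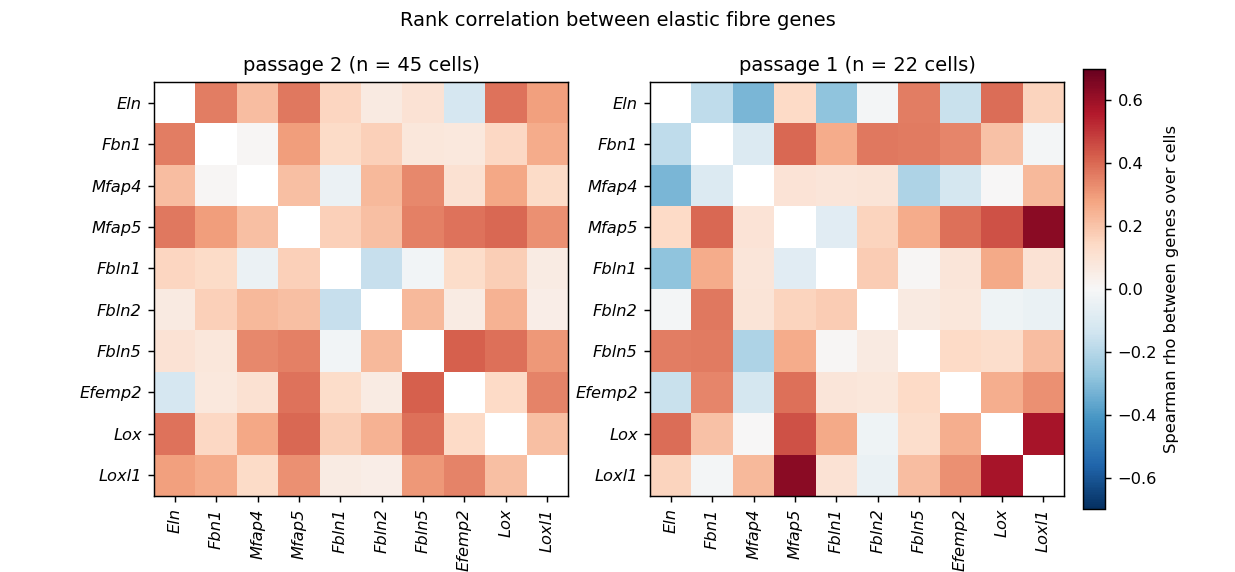
Spearman's rho between each pair of elastic fibre genes over passage 2 cells (n = 45, left) and passage 1 cells (n = 22, right), on a colour scale from -0.7 (blue) to 0.7 (red). Most passage 2 pairs are weakly above 0, with a highest value of 0.42, and the strongest passage 1 pairs are those among Lox, Loxl1 and Mfap5.

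The mean log2 value of the members in a cell went with smooth muscle markers at rho 0.43 in passage 2 cells and -0.18 in passage 1 cells. Without endothelial marker cells this rho was 0.34 (n = 43) and -0.31 (n = 17). With fibroblast markers rho was 0.13 in passage 2 cells and 0.55 in passage 1 cells, and 0.10 and 0.56 without endothelial marker cells. Against Mki67, a marker of cycling cells, the mean of the members stood at -0.12 at passage 2 and -0.09 at passage 1. The lowest members at passage 2 were Mfap4 at -0.45 (-0.02 at passage 1) and Fbln5 at -0.38 (0.06). The other members ran from -0.25 (Eln) to 0.21 (Fbln2) at passage 2. Without endothelial marker cells, passage 2 values were -0.42 for Mfap4, -0.29 for Fbln5, 0.37 for Fbln2 and -0.01 for the mean.

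Genes most like Eln over passage 2 cells were sought among 5837 genes that passed the filter and were read in 50% or more of passage 2 cells. They were Steap2, a metalloreductase (rho 0.56), Lama5, a laminin chain of basement membranes (0.55), Bmpr1a, a receptor for bone morphogenetic proteins (0.52), Gm12758 (0.52) and Hibadh, an enzyme of valine breakdown (0.50). Over the 22 passage 1 cells, where Eln is near background, Lama5 stood at 0.58 and the other 4 between -0.11 and 0.16. Steap2 is among the genes that share runs of 50 bases with Eln exons (2.82% of Eln's runs occur in some other gene), and so is Grn, named next; the part of these runs in the correlations was not tested. Genes most like the mean of the members were Col1a2, a chain of fibrillar collagen (0.58), Sptbn1, a spectrin (0.57), Dclk1, a microtubule-associated kinase (0.57), Grn, which encodes progranulin (0.52), and Steap2 (0.50). At passage 1 these stood at 0.56, 0.43, 0.41, 0.42 and -0.16.

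Other genes of elastic fibre formation and turnover were counted in 5 lists: 14 of them had a log2 ratio of at least 1 and 4 a ratio of at most -1, with 14.4% and 19.4% of all genes that passed beyond these limits. Of the 14, 6 passed the filter only through passage 2, where they are high (Fbln7, Ltbp4, Adamtsl4, Atp7a, Slc2a10 and Neu1), and of the 4, Emilin2 passed it only through passage 1. Among the 28 genes of the lists that passed in both passages, 8 were at or above 1, beside 10.0% of all such genes, and 3 at or below -1, beside 12.3%. The lists, like the members, were chosen with earlier results of these data known, so these counts are descriptions. Of 16 other microfibril genes, 12 passed the filter, with a median ratio of 0.86; 5 were at or above 1 (Fbln7, Ltbp4, Ltbp2, Ltbp3 and Adamtsl4) and 3 at or below -1 (Emilin2, Mfap3 and Efemp1). Fbln7, a fibulin, averaged 39.3 ± 96.1 at passage 2 and 3.11 ± 12.4 at passage 1 (ratio 3.30). Ltbp1, the latent transforming growth factor beta binding protein with the highest mean of the list, averaged 473 ± 454 at passage 2 and 281 ± 253 at passage 1 (0.75). Emilin2, a glycoprotein of the emilin family, averaged 3.19 ± 10.2 at passage 2 and 16.6 ± 46.7 at passage 1 (-2.08). The spread between cells exceeded the mean for Fbln7 and Emilin2 in both groups. Ltbp4, Ltbp2, Ltbp3, Adamtsl4, Mfap3 and Efemp1 are named here after their values were seen, and Fbn2, the fibrillin of early development, was listed at 0 in every cell.

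Genes that supply the crosslinking step had a median ratio of 0.06 over the 7 of 10 that passed, with 3 at or above 1 (Bmp1, Atp7a and Slc2a10) and 0 at or below -1. Bmp1, the protease that cuts the Lox propeptide, averaged 99.7 ± 135 at passage 2 and 28 ± 44.8 at passage 1 (ratio 1.80). The copper importer Slc31a1 averaged 110 ± 145 at passage 2 and 138 ± 131 at passage 1 (-0.33). The copper transporter Atp7a (1.56) and Slc2a10 (1.16) are named after their values were seen. Loxl2, Loxl4 and Tll1 failed the filter.

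Elastin receptor genes had a median ratio of 0.70 over 8, with 4 at or above 1 and 1 at or below -1. Itgb1, the integrin beta 1 chain, averaged 1119 ± 549 at passage 2 and 552 ± 307 at passage 1 (ratio 1.02). Itgb5, another integrin beta chain, averaged 240 ± 352 at passage 2 and 58.6 ± 69 at passage 1 (2.02). Glb1, whose splice form is the elastin binding protein, averaged 27.2 ± 76.4 at passage 2 and 69.2 ± 140 at passage 1 (-1.32), while its complex partners Ctsa (1.03) and Neu1 (1.05), named after their values were seen, lay on the other side.

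Elastase genes had a median ratio of 0.36 over the 5 of 7 that passed, and Mmp9 and Ctss were listed at 0 in every cell. Mmp12, macrophage metalloelastase, averaged 31.7 ± 27 at passage 2 and 12.1 ± 11.4 at passage 1 (ratio 1.32). Ctsl, a lysosomal cathepsin with the highest mean of the list, averaged 1164 ± 565 at passage 2 and 726 ± 301 at passage 1 (0.68), and Ctsk, a cathepsin that cuts collagen and elastin, 115 ± 179 at passage 2 and 163 ± 187 at passage 1 (-0.50). Of the 4 inhibitors, Cst3, which encodes the cathepsin inhibitor cystatin C, averaged 2825 ± 1804 at passage 2 and 433 ± 213 at passage 1 (2.70), with passage 2 higher in 95.6% of pairs. The other inhibitors stayed within a ratio of 1: Timp3, the matrix-bound metalloproteinase inhibitor, averaged 1969 ± 2237 at passage 2 and 2159 ± 2467 at passage 1 (-0.13), and Timp1 318 ± 343 at passage 2 and 496 ± 476 at passage 1 (-0.64).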

How the data were processed

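The deposited table holds a signal for each gene in each of 67 cells: gene counts scaled by the authors with a size factor for each cell, and the submitters' processing notes name BWA, SAMtools, HTSeq and DESeq with the GRCm38 genome, with no versions. Capture on a Fluidigm C1 system and Nextera XT dual-index libraries are per the labels' protocols. Strand, multi-mapped reads and the annotation used in counting are not given in the sources used here. Every value above 0 (509576 values) was within 0.001 of a whole number of reads once divided by its cell's step, which gave 41340350 reads at passage 2 and 26400274 at passage 1. Of 39179 rows, 37607 had a symbol in GENCODE M21 (GRCm38) and 20000 had a read in at least 1 cell; the 8682 genes that passed the filter held 97.8% of reads. No column lacked a sample. The highest Spearman's rho between any 2 cells was 0.63. No cell was removed and no doublet caller was run. Since cells are not replicates and each passage is 1 sample, no count test was run on the recovered reads, and a difference between passages has no replicate check; the call was a fold of 2 between means of normalised counts. The log2 ratio is on the scale of log2(mean + 1), which understates the change of low genes. Shares have exact Clopper-Pearson intervals (95%), which treat cells as independent draws. Reads have exact Poisson intervals (95%), which treat reads as independent. Neither covers differences between animals or cultures. The alternatives were other pseudocounts (0.1 and 10), filters, scalings (total reads, and TMM from edgeR 4.0.16 in R 4.3.3), medians or mean logs over cells, thinning, and sets of cells. Genes named outside the set were those with the highest mean in a passage or the highest or lowest ratio of each list, and the 5 most correlated with Eln or with the members; other genes at or beyond a ratio of 1 were named after their values were seen. Scripts used scipy 1.17.1, pandas 2.3.3, matplotlib 3.10.9 and numpy 2.4.6 under Python 3.11.15. Only the calculation of the log2 ratio was tested on simulated data. The members and lists were chosen with earlier results of these data known.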

Additional observations from a re-analysis of the deposited data

How the results depend on the processing

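Of 129 log2 ratios of single members recomputed under 13 settings, 118 kept their sign, 10 turned and 1 came to 0; Eln, Fbln5, Lox, Loxl1 and Mfap5 kept theirs under all 13, and the cause of the others was not tested. Mfap4 turned to -0.66 on medians over cells. The members' median ratio of 1.45 was 1.39 with a pseudocount of 10, on reads per total and with cells thinned to 500000 reads, 1.37 with no filter and with the stricter filter (a read in at least 50% of cells), 1.56 with TMM scaling, 1.87 on medians over cells, 1.52 on means of log2 values, 1.33 without the 25% of cells with the fewest genes, 1.2 without endothelial marker cells, 0.87 without cycling cells and 1.06 in cells matched on reads. Leaving out each cell in turn gave 1.36 to 1.63, and the count of members at or above 1 stayed at 6; that count was 5 on medians over cells, with the stricter filter and without cycling cells. On medians over cells and on means of log2 values the median of all genes was -0.60 and -0.62, in place of -0.11. The 14 genes of the related lists at or above 1 were 9 with a pseudocount of 10, with the stricter filter and on means of log2 values, 7 on medians over cells, and 11 to 15 as each cell was left out. The 4 at or below -1 were 2 with a pseudocount of 10, 7 on means of log2 values, and 2 to 5 as each cell was left out. Members per cell averaged 8.27 at passage 1 with any read counted. On medians over cells Fbln5 was at 2.82 and Mfap5 at 2.03. Fbn1 was -0.35 and Fbln1 -2.15 in cells matched on reads. With lengths of the longest transcript, 7 members at passage 2 and 8 at passage 1 kept their place in the order per kb. No paired analysis was possible because the labels number single cells and give the passages no shared replicate. Low counts limit the precision of Eln and Mfap4 at passage 1 (67 and 32 reads) and of Fbln1 (344 and 201 reads).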
